A study of Mus musculus with 35 samples.

Results

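Control skin was divided by the level of Krt71, a keratin of the inner root sheath that is made in growing hair follicles. Of 16 control libraries, 5 held Krt71 at 10 CPM or more (counts per 1000000 counts of the library) and are called anagen-like, and 11 held less and are called resting. The names stand for the Krt71 rule and not for a stage of the hair cycle. In 4 of the 5, at most 2 of 40 cell cycle genes lay above all resting libraries, where 8.77 to 10.4% of all genes did. Those resting libraries include week 4, which held the highest resting cell cycle sums and no anagen-like library. These 16 are among 35 skin libraries of the series. The groups were chosen by the measured Krt71 values, so these values are a description, and so is every difference between the groups in the same 16 libraries. Test results are read only for measures that did not enter the choice: the week of sampling, and the radiated skin of the same mice. A fit between the groups in control skin gives the sizes of differences and their errors, and its calls are counted without being read.

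The study followed radiation dermatitis in female C57BL/6J mice, an inbred strain, that were 10 weeks old. In 4 groups of mice the left flank was irradiated with 25 Gy and the treated skin then shaved. For each of weeks 1, 2, 3 and 4 there were 4 radiated and 4 control libraries, and 3 sham mice had no radiation. Bulk RNA was sequenced, and 35 libraries came from 19 mice. All control skin used here therefore came from mice that had been irradiated on the flank. The labels do not say where on the body control skin was taken or whether it had been shaved. A control and a radiated library that share week and number were treated as skin of 1 mouse, which the labels do not state outright.

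Hair follicles pass through repeated cycles of growth (anagen), regression (catagen) and rest (telogen). In anagen, rapidly dividing matrix cells around the dermal papilla, the mesenchymal core of the hair bulb, produce the hair shaft and the inner root sheath that moulds it, and pigment cells of the bulb hand melanin to the shaft. Shaft keratins are cross-linked by keratin-associated proteins, whose genes lie close to the keratin genes, whereas inner root sheath cells fill with trichohyalin and are hardened by deiminating and transglutaminating enzymes.

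The keratin genes that separated the 2 groups lie in 2 clusters, and some of those with a promoter sequence in RefSeq's table share a short element upstream of their start. Among the genes whose level in all 5 anagen-like libraries lay above that in all 11 resting libraries, 7 were keratins between positions 99315516 and 100096241 of chromosome 11, a stretch of 0.781 Mb, and 7 were keratins between 101431038 and 101802346 of chromosome 15, a stretch of 0.371 Mb (GRCm38). Krt71 itself lies on chromosome 15 from 101733949 to 101743109. The 120 bases before the start of 6 hair genes are shown because the genes move together and share the TATA element; they are from RefSeq on GRCm38.p6, 5′ to 3′ on the strand of the gene, which is the minus strand for all 6, with each TATAAA in capitals. The positions are chr11:99322952-99323071 for Krt25, chr11:99351119-99351238 for Krt27, chr11:99374904-99375023 for Krt28, chr15:101802361-101802480 for Krt73, chr11:100050552-100050671 for Krt31 and chr11:99566631-99566750 for Krtap3-1.
Krt25: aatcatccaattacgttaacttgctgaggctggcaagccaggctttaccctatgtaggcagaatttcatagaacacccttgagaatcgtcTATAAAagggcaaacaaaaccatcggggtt
Krt27: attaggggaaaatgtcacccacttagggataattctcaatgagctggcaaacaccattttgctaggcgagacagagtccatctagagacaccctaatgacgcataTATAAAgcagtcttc
Krt28: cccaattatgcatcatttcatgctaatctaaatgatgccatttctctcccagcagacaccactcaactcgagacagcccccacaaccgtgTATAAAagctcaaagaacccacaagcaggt
Krt73: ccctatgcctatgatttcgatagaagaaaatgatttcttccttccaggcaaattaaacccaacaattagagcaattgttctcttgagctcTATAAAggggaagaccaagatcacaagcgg
Krt31: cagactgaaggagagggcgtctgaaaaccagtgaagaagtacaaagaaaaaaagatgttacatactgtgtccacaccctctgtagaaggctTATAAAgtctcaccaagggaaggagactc
Krtap3-1: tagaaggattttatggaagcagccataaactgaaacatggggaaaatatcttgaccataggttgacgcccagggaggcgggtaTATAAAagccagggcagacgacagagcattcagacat

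In these sequences the first base of TATAAA lies 30 bases before the start in Krt25, Krt28 and Krt73, 29 in Krt31, 37 in Krtap3-1 and 15 in Krt27. On the strand of the gene, TATAAA was found in the 120 bases of 6 of 7 inner root sheath keratin promoters (85.7%, Krt71 counted, 7 of 8 genes matched), 5 of 9 shaft keratin promoters (55.6%, with 9 of the 14 listed genes matched) and 41 of 51 promoters of keratin-associated proteins (80.4%). The share was 4.19% of all 32851 promoters of the same length (1375), and 6.34% when either strand counted. Among interfollicular epidermis genes, which served as another keratinocyte list, it was 7 of 28 promoters (25.0%). TATAAA was thus more frequent in the hair keratin lists than among all promoters, but the epidermal list also stood above that background. Of the 37 genes higher in every anagen-like library, 27 had an entry, with 38 promoters, and 9 of these held TATAAA (23.7%). Krt81, Krt83, Krt86, Krt87, Krt33a and Krt35 were not matched and so not searched. The letters CTTTGA, the core bound by Lef1 and Tcf proteins, were in 1 of 7 inner root sheath keratin promoters on either strand (14.3%) against 6.1% of all promoters, and CTTTGT was in 0 of 7 against 7.79%. The Gata core AGATAA was in 0 of 7 and in 0 of 9 shaft keratin promoters, against 4.36% of all promoters on either strand. In the 51 promoters of keratin-associated proteins, on either strand, CTTTGA was in 2 (3.92%), CTTTGT in 6 (11.8%) and AGATAA in 5 (9.8%). A match is a description of letters and not of a bound site, and no match says only that the letters are not in this window.

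Krt71 stood at 1514 CPM in week 1 library 1, 298 in week 1 library 4, 769 in week 2 library 1, 20.4 in week 2 library 4 and 311 in week 3 library 4. These are the 5 anagen-like libraries, and their values are given in this order throughout. In the 11 resting libraries Krt71 ran from 0 to 1.74 CPM with a median of 0.604. The library just inside the threshold held 20.4 CPM and the one just outside it 1.74, so thresholds of 5 and 20 CPM gave the same 2 groups, while 100 CPM moved week 2 library 4 to the resting side. In the 3 sham libraries Krt71 stood at 519, 4968 and 5742 CPM.

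**Figure D1:**
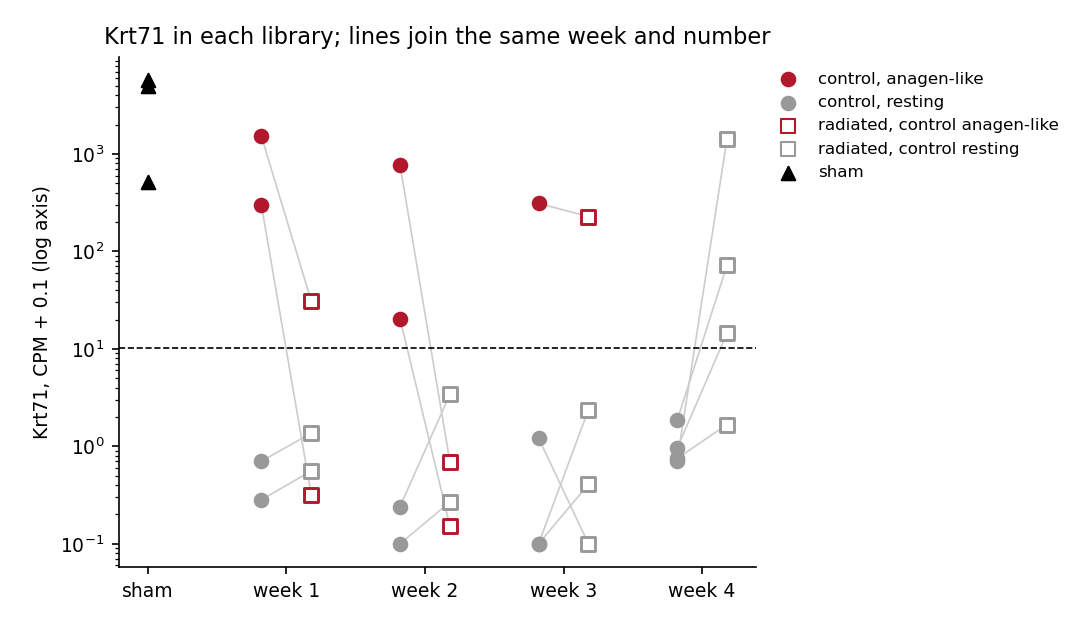
Krt71 level (CPM + 0.1, log axis) in each of the 35 libraries, with control skin as filled circles, radiated skin as open squares, sham skin as triangles, and the 10 CPM threshold dashed. The 5 anagen-like control libraries lie in weeks 1 to 3, no control library of week 4 reaches 10 CPM, and 2 sham libraries lie above every control library.

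The anagen-like libraries were 2 of 4 in week 1, 2 of 4 in week 2, 1 of 4 in week 3 and 0 of 4 in week 4. The week counts did not depart from equal shares beyond what reassigning the labels gives (chi-square 2.2, exact permutation p = 0.648 over 4368 arrangements, the smallest possible p being 0.000229). With 5 anagen-like libraries, an uneven spread over weeks may still be present. Because the resting group holds all of week 4, the median difference of each list is given below also with week as a term in the fit.

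The 2 groups had similar depth: total counts were 19509652 to 26897501 in the anagen-like and 17773240 to 28487885 in the resting libraries, and 20785 to 21422 and 20360 to 21450 genes had counts. Skin markers were present in every control library, with Krt10 from 4757 to 10100.0 CPM and Col1a1 from 366 to 6570.2. Week 4 library 1, a resting one, stood apart in skeletal muscle, with Acta1 at 93.9 CPM against 578 to 2744 in the other 15 control libraries. In bulk tissue, fewer cells of a type and less RNA per cell cannot be told apart. The p-values below measure the spread between these samples, which are separate mice within a group under the reading of the labels given above.

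Of 17917 genes fitted in control skin, 37 (0.207%) lay higher in all 5 anagen-like libraries than in all 11 resting ones, and 7 (0.0391%) lay lower. Of the 37, 14 were keratins, and 16 were in none of the gene lists. A gene could pass the filter on low counts through the 5 anagen-like libraries alone. The 37 and the fitted members of each list therefore include genes near 0 in resting skin. Krt33b, Krt33a, Krt73, Krt81 and Krt72 held 3, 8, 12, 18 and 19 counts in all 11 resting libraries together. The edgeR fit marked 75 genes (0.419%) as higher and 4 (0.0223%) as lower at an adjusted threshold of 0.05, of which 34 were among the 44 genes without overlap. Nothing is read from these counts, since the same libraries set the groups. With week as a term the fit marked 33 higher and 2 lower genes, 33 of them shared with the first set. The counts depend on single libraries: without week 2 library 4 there were 105 genes without overlap and 140 fitted, without week 1 library 4 there were 111 and 121, and without week 3 library 4, week 3 library 2 or week 1 library 1 there were 91, 71 and 67 without overlap.

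Inner root sheath genes had large differences. Of 14 listed, 13 were fitted, 8 lay above the resting range in all 5 libraries, and the median log2 difference of the 13 was 6.11, against 0.01 over all genes; with week as a term it was 6.15, and without week 1 library 1 it was 5.32. Krt25, a type I keratin that pairs with Krt71 in this sheath, stood at 531, 124, 409, 10.2 and 175 CPM, and at 0.0409 to 1.67 with a median of 0.131 in resting skin. Its log2 difference was 9.24 ± 0.73 (SE). All 5 values lay above all 11, with week 2 library 4 the lowest of the 5. Krt27, another type I sheath keratin, stood at 249, 43.5, 81.2, 5.58 and 55.7 CPM against 0.0956 to 1.12, a log2 difference of 7.53 ± 0.64. Krt73, a type II keratin of the sheath cuticle, stood at 117, 24.3, 143, 1.98 and 20.0 CPM against 0 to 0.256. Its log2 difference of 10.16 ± 0.84 rests on 12 counts in all 11 resting libraries together, so the size is less certain than the direction. Krt72, the other type II cuticle keratin, reached 214 CPM in week 1 library 1 but 0.521 in week 2 library 4, against at most 0.342 in resting skin. Krt28 was at 75.0, 9.80, 78.0, 1.15 and 11.4 CPM against 0.0861 to 0.929.

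Trichohyalin, the protein that fills inner root sheath and medulla cells, and an enzyme that modifies it had the same pattern. Tchh stood at 4220.0, 878, 1168, 68.4 and 1278 CPM against 7.08 to 30.1 in resting skin, a log2 difference of 6.16 ± 0.54. The resting libraries together held 5255 Tchh counts, so this difference rests on well-counted values in both groups. Padi3, a peptidylarginine deiminase that converts arginines of trichohyalin, stood at 57.0, 9.84, 23.6, 0.991 and 11.7 CPM against 0 to 0.532. Crym, a thyroid hormone binding protein of the follicle, was closer, at 21.4, 3.03, 7.70, 2.76 and 1.94 CPM against 0.855 to 1.89. Krt26 and Tchhl1 overlapped through week 2 library 4, which held 1.15 and 1.04 CPM. The sheath transcription factor Gata3, which other skin cells also make, was the member that was not higher: 607 to 785 CPM against 501 to 1272. The 3 transcription factors of the list, Gata3, Trps1 and Cux1, had log2 differences of -0.31, 0.51 and 0.65.

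Hair shaft keratins followed. Of 14 listed, 11 were fitted, 8 had no overlap, and the median log2 difference was 6.05, or 5.30 with week as a term and 4.94 without week 1 library 1. As for sheath genes, a member could pass the filter on low counts through the anagen-like libraries alone. Krt86, a type II keratin of the shaft cortex, stood at 287, 29.0, 19.8, 3.13 and 40.2 CPM against 0 to 0.556, a log2 difference of 9.14 ± 0.86. Krt81 stood at 222, 23.4, 30.4, 2.35 and 32.1 CPM against 0 to 0.335, and Krt83 at 187, 15.4, 7.32, 1.77 and 18.0 CPM against 0 to 0.327. All 3 were highest in week 1 library 1 and lowest in week 2 library 4. Krt87, which was in no list, was at 154, 15.6, 12.5, 3.23 and 15.7 CPM against 0 to 0.727. Among type I shaft keratins, Krt31 stood at 65.4, 5.42, 3.14, 1.25 and 7.76 CPM against 0.0442 to 0.656. Krt35, a keratin of the lower shaft that appears early in the shaft's differentiation, had another order: it was highest in week 2 library 1, at 47.1 CPM, and stood at 33.1, 9.17, 1.41 and 6.74 CPM in the other 4 anagen-like libraries, against 0.0861 to 1.00 in resting skin. Krt33a stood at 83.7, 6.22, 2.00, 0.782 and 10.8 CPM against 0 to 0.133. Krt33a and Krt33b held the same value above 0 in 2 of the control libraries; these 2 genes, the type II shaft keratins and keratin-associated proteins of 1 family are similar in sequence as background knowledge, so their single values are uncertain where reads were shared, which was not measured here.

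Keratin-associated proteins were mostly too low to be fitted. Of 58 in the table, 4 passed the filter on low counts, which a gene could pass through the anagen-like libraries alone, and their median log2 difference was 6.04, or 6.38 with week as a term. This median of 4 genes was 4.51 without week 1 library 1, 4.98 without week 4 library 2 and 7.07 without week 3 library 3. Krtap3-1 was the member without overlap, at 185, 23.0, 2.95, 1.20 and 44.1 CPM against 0.0437 to 0.976, a log2 difference of 6.98 ± 0.80. Krtap1-5 stood at 123, 6.22, 1.05, 0 and 8.85 CPM against 0 to 0.708, and its absence from week 2 library 4 made the groups overlap. Counted per library, 55, 44, 25, 12 and 46 of the 58 genes held more than 3 counts in the anagen-like libraries, and 3 to 7 in the resting ones.

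**Figure D2:**
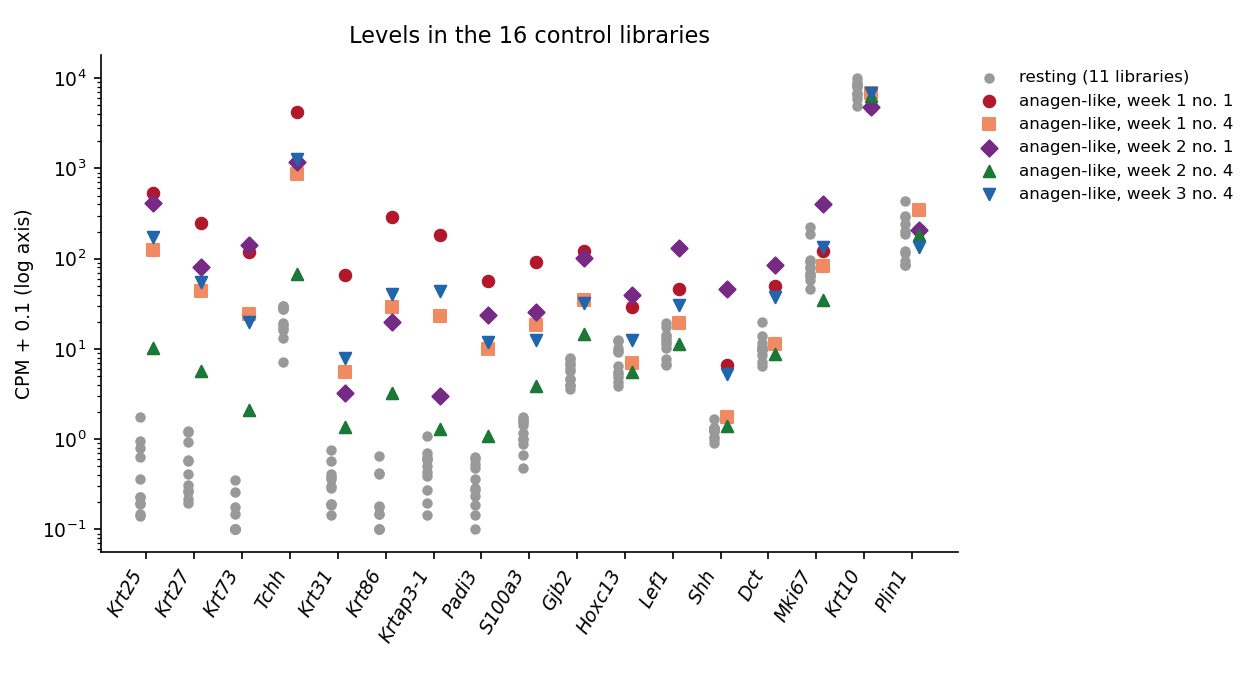
Level (CPM + 0.1, log axis) of 17 genes in each of the 16 control libraries, resting ones in grey and the 5 anagen-like ones in colour. Sheath and shaft genes such as Krt25 (10.2 CPM at least against 1.67 at most) separate the groups, while Mki67, Krt10 and Plin1 overlap.

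Enzymes and membrane proteins of the shaft were split. Of 14 fitted, 3 had no overlap, and the median log2 difference was 1.03, or 1.33 with week and 0.56 without week 1 library 1. S100a3, a calcium binding protein of the shaft cuticle, stood at 92.8, 18.2, 25.3, 3.75 and 12.5 CPM against 0.380 to 1.68, a log2 difference of 4.79 ± 0.49. Padi1, another deiminase, stood at 20.0, 2.90, 4.75, 0.521 and 4.05 CPM against 0 to 0.325, and Vsig8, an immunoglobulin-domain protein of hair cells, at 57.3, 17.7, 12.6, 4.17 and 9.25 CPM against 0 to 0.795. Dsg4, the desmosomal cadherin of the shaft, overlapped slightly, at 2.40 to 23.3 CPM against 0.123 to 2.58. Tgm3, a transglutaminase that epidermis also makes, had values of 5.42 to 19.6 CPM against 3.93 to 23.0, and Krt75, the companion layer keratin, 16.5 to 81.3 against 25.9 to 76.7. These 2 members did not separate the groups.

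Several genes outside the lists, named after their values were seen, also had no overlap. Gjb2, a gap junction protein, stood at 123, 35.1, 101, 14.4 and 32.3 CPM against 3.46 to 7.76, a log2 difference of 3.48 ± 0.35, and its neighbour on chromosome 14, Gjb6, at 14.9, 4.41, 10.5, 2.19 and 3.43 CPM against 0.598 to 1.53. Lrrc15, a leucine-rich repeat membrane protein, stood at 112, 14.8, 58.5, 5.63 and 15.1 CPM against 1.46 to 5.36. Ctse, the protease cathepsin E, stood at 44.8, 3.62, 11.5, 5.42 and 3.65 CPM against 0.0478 to 1.02. Among the 37 genes, the highest of the 5 libraries was week 1 library 1 for 23 and week 2 library 1 for 12, and the lowest was week 2 library 4 for 28.

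Of the 7 genes that were lower in every anagen-like library, the 5 with a mean of at least 5 CPM differed by less than 1 on the log2 scale. Vgll3, a transcription cofactor, stood at 143, 145, 104, 151 and 168 CPM against 188 to 247, a log2 difference of -0.59 ± 0.10. Klhl25, Unc13d, Cyfip1 and Pacsin2, the other members with a mean of at least 5 CPM, had log2 differences of -0.62, -0.49, -0.21 and -0.15. The remaining 2, 9130019O22Rik and Gstp3, were at -0.86 and -2.19, and Gstp3 was at or below 0.156 CPM in all 5. None of the 7 belonged to a list.

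The anagen-like libraries differed in the proportions of follicle genes. Inner root sheath keratins other than Krt71 summed to 1316, 222, 736, 20.9 and 288 CPM, against 1.80 to 4.28 in resting skin. Shaft keratins summed to 1067, 118, 124, 15.8 and 147 CPM, against 6.34 to 10.6. Keratin-associated proteins summed to 1047, 109, 19.4, 9.75 and 176 CPM, against 5.16 to 9.36. For each 100 counts of inner root sheath keratins other than Krt71 there were 81.1, 53.2, 16.9, 75.8 and 51.0 counts of shaft keratins. The counts of keratin-associated proteins were 79.5, 49.2, 2.64, 46.8 and 61.1. Week 2 library 1 thus had high sheath keratins with few keratin-associated protein counts, and both of its ratios lay below those of the other 4. In week 2 library 4 the shaft keratin and keratin-associated protein sums were little above the resting range, so its ratios also hold counts at the level of resting skin and are not read as a mixture of follicle genes. The 3 sham libraries held 91.4, 55.6 and 68.8 shaft keratin counts and 40.4, 73.1 and 63.7 keratin-associated protein counts per 100. In week 1 libraries 1 and 4 and week 3 library 4 the ratios were 51.0 to 81.1 and 49.2 to 79.5. Sham libraries 2 and 3 lay within both ranges and sham library 1 outside both.

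**Figure D3:**
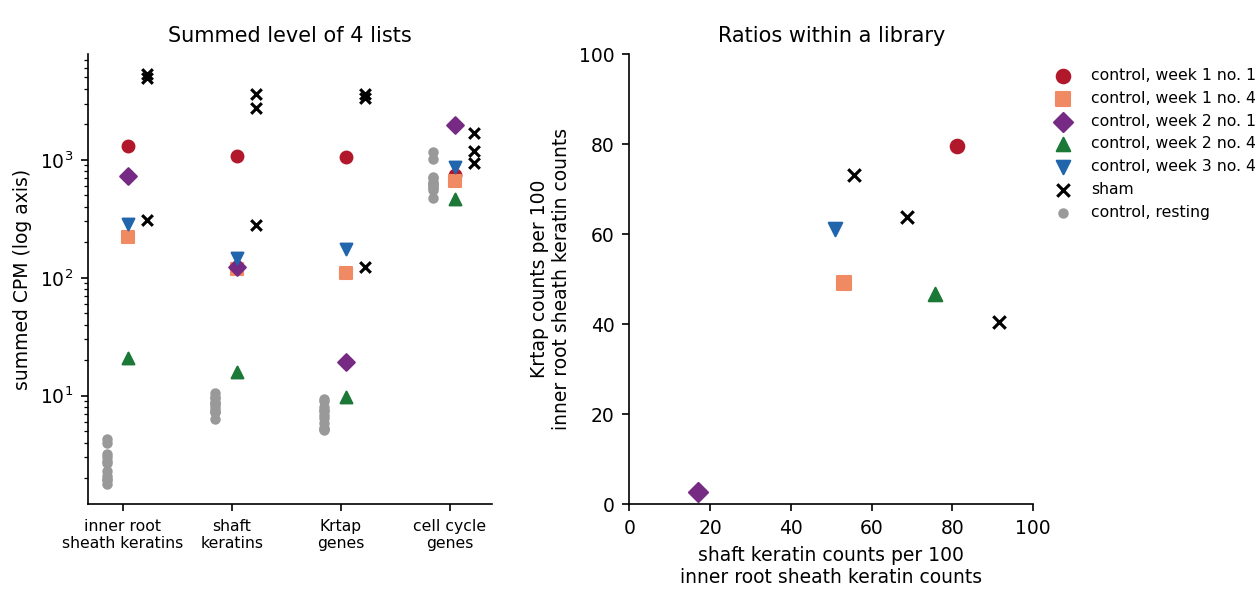
Left, summed CPM (log axis) of 4 gene lists in resting libraries (grey), the 5 anagen-like control libraries (colour) and sham skin (crosses). Right, shaft keratin counts against Krtap counts, both per 100 inner root sheath keratin counts of the same library. Krt71 is left out of the sheath keratins in both panels. Week 2 library 1 lies at 16.9 and 2.64 per 100, below all other plotted libraries, and has the highest cell cycle sum, 1989 CPM.

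Cell cycle genes set week 2 library 1 apart most clearly. Their sum was 736, 662, 1989, 465 and 864 CPM in the 5 libraries, against 474 to 1174 in resting skin, so the groups overlapped. The highest resting sums, 1174 and 1021 CPM, were those of week 4 libraries 1 and 2, a week without anagen-like libraries. Resting libraries of weeks 1 to 3 held 474 to 701 CPM. Week 1 library 1, week 2 library 1 and week 3 library 4 lay above these. In week 2 library 1, 39 of 40 cell cycle genes lay above all 11 resting libraries, where 12.7% of all genes did so. In the other 4 anagen-like libraries the count was 1, 2, 0 and 2 of 40, where 10.1, 8.77, 10.4 and 9.39% of all genes did so. In week 2 library 4, 11 of 40 lay below the resting range, against 12.1% of all genes. Mki67, a marker of dividing cells, stood at 120.2, 83.7, 403, 35.1 and 136 CPM against 45.5 to 227. No cell cycle gene separated the groups, and the median log2 difference of the list was 0.45, or 0.59 with week as a term, with 39 of 40 members positive. That median depends on week 2 library 1, without which it was -0.01; leaving out any other library gave at most 0.61.

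Transcription factors of the hair matrix were split. Of 19 fitted, Dlx1 alone had no overlap, at 2.51, 2.06, 11.1, 2.50 and 3.20 CPM against 0.697 to 1.80, and the median log2 difference was 0.56 with and without week as a term. Lef1, which mediates Wnt signals in matrix and precortex, stood at 45.8, 19.2, 129.9, 11.2 and 30.4 CPM against 6.59 to 19.1, a log2 difference of 2.00 ± 0.39. Hoxc13, which controls shaft keratin genes, stood at 28.8, 6.90, 39.1, 5.48 and 12.3 CPM against 3.75 to 12.3. Msx2 stood at 15.9, 6.05, 31.8, 4.85 and 7.14 CPM against 2.44 to 6.68. Foxn1, the nude gene, needed for shaft differentiation, stood at 24.2, 9.08, 14.3, 5.53 and 9.59 CPM against 5.37 to 12.0. For Lef1, Hoxc13 and Msx2, week 2 library 1 was highest and week 2 library 4 lay inside the resting range. Counted over the list, 10, 3, 14, 5 and 9 of 19 members lay above all resting libraries, where 10.1, 8.77, 12.7, 10.4 and 9.39% of all genes did so. The list stood furthest from that background in week 2 library 1 and closest to it in week 1 library 4.

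Among 48 signalling genes, none had no overlap and the median log2 difference was 0.08, or 0.15 with week. Shh, the hedgehog ligand made by matrix cells, stood at 6.61, 1.68, 46.0, 1.30 and 5.14 CPM against 0.812 to 1.59, a log2 difference of 3.43 ± 0.55, and only week 2 library 4 lay within the resting range. Its target Gli1 stood at 25.6, 13.4, 71.7, 8.03 and 24.9 CPM against 5.71 to 12.7. The receptor Ptch1, which is also a target, reached 366 CPM in week 2 library 1, against at most 103 in resting skin. The growth inhibitors Bmp4 and Fgf18, made in or near resting follicles, had log2 differences of -0.17 ± 0.32 and -0.56 ± 0.43.

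Genes of the dermal papilla and sheath had a median log2 difference of 0.51 (29 fitted, none without overlap), or 0.57 with week. Scube3, a secreted papilla factor, stood at 16.8, 11.9, 66.4, 9.49 and 20.7 CPM against 4.54 to 12.3, a log2 difference of 1.71 ± 0.33. Corin, a papilla protease, stood at 2.33, 0.715, 2.42, 0.365 and 0.628 CPM against 0.172 to 1.14. Follicle stem cell genes were near the all-gene median, at 0.06 over 24 genes, or 0.13 with week: Cd34 stood at 143 to 271 CPM against 122 to 303, and Krt15 at 1314 to 2959.5 against 2024 to 4736. Their values overlapped widely.

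Pigment genes were split. Of 21 fitted, none separated the groups, and the median log2 difference was 0.51, or 0.58 with week. The summed level of the list was 500, 330, 479, 357 and 337 CPM against 277 to 393, so that 2 libraries, week 1 library 1 and week 2 library 1, lay above the resting range. Tyrp1, a melanin-synthesis enzyme, stood at 11.2, 2.73, 14.8, 1.93 and 6.62 CPM against 0.560 to 2.53, a log2 difference of 2.69 ± 0.39. Dct, dopachrome tautomerase, stood at 49.2, 11.2, 83.9, 8.76 and 37.7 CPM against 6.34 to 19.8, and Tyr, tyrosinase, at 4.79, 1.05, 10.7, 0.886 and 3.60 CPM against 0.333 to 1.21. Dct and Tyr lay above the resting range in week 1 library 1, week 2 library 1 and week 3 library 4, and inside it in the 2 libraries numbered 4 of weeks 1 and 2. In the same 3 libraries Shh stood at 5.14 CPM or more and Hoxc13 at 12.3 or more.

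**Figure D4:**
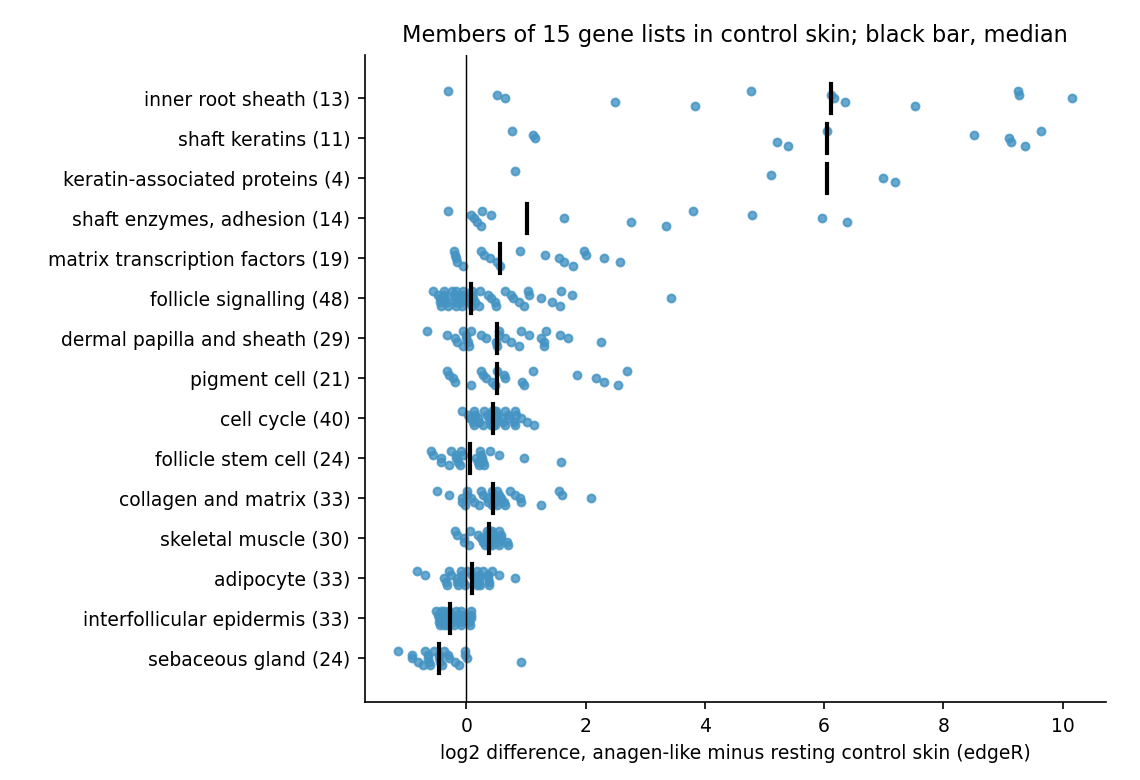
Log2 difference between anagen-like and resting control skin for each fitted member of 15 gene lists (points, number of members in parentheses), with the list median as a black bar. Medians are 6.11, 6.05 and 6.04 for sheath genes, shaft keratins and keratin-associated proteins, and between -0.46 and 1.03 for the other lists.

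No list of genes from outside the follicle had a member that separated the groups, where 0.207% of all genes lay higher and 0.0391% lower. At such shares a list of this size can hold none, so this is not read as a trait of these lists. The signalling, stem cell, papilla, pigment and cell cycle lists also had none. The median log2 difference was -0.27 for 33 interfollicular epidermis genes and -0.46 for 24 sebaceous gland genes, with 5 and 2 members positive, and -0.25 for each with week as a term. Epidermal genes lay below all resting libraries for 19, 3, 18, 11 and 4 of 33 members, and sebaceous genes for 5, 3, 17, 4 and 2 of 24, where 10.7, 8.75, 13.5, 12.1 and 8.96% of all genes did so. The epidermal counts came to 57.6, 9.09, 54.5, 33.3 and 12.1% of the list and the sebaceous counts to 20.8, 12.5, 70.8, 16.7 and 8.33%. Krt5, the basal keratin, stood at 3456, 5364, 3694, 3949.9 and 4923 CPM against 4402 to 7852. Awat1, a sebaceous wax synthase, stood at 3.07, 1.98, 0.570, 8.60 and 5.99 CPM against 3.92 to 25.1. Fads2, a fatty acid desaturase in the same list, stood at 13.0, 7.44, 16.3, 10.3 and 11.9 CPM against 4.56 to 8.17, above the resting range in 4 of the 5.

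Collagen and matrix genes had a median log2 difference of 0.46 over 33 members, or 0.33 with week, and a summed level of 11163 to 26410 CPM against 5323 to 22997. Tnc, tenascin C, stood at 30.4, 17.4, 49.2, 47.5 and 28.9 CPM against 5.39 to 20.9. Adipocyte genes had a median of 0.09, which was -0.06 with week as a term, and Plin1, the coat protein of fat droplets, stood at 136 to 349.8 CPM against 84.2 to 437. Skeletal muscle genes had a median of 0.38, which was -0.03 with week as a term. Interferon-stimulated genes had a median of -0.34, which was 0.07 with week and 0.15 without week 3 library 2, a resting library whose summed level of the list was 1862 CPM against 247 to 826 in the other 10 resting libraries. The sign of all 3 thus changed with the week term. So did that of circadian clock genes (0.15, or -0.18 with week), Hox genes (-0.05, or 0.26) and p53 target genes (0.09, or -0.05). T cell, macrophage, neutrophil and mast cell, vessel and nerve lists had medians from -0.20 to 0.14, or -0.18 to 0.09 with week as a term. Antigen presentation and follicular immune privilege genes had a median of -0.13, or -0.16 with week. They lay below all resting libraries for 0, 1, 12, 8 and 3 of 21 members, and nerve genes for 1, 1, 9, 3 and 2 of 18. The shares of all genes were 10.7, 8.75, 13.5, 12.1 and 8.96%. Stress and wound keratinocyte genes had a median of 0.52 over 16 members, or 0.26 with week and 0.03 without week 2 library 4. In that library 8 of 16 members lay above all resting libraries, against 10.4% of all genes. In the other 4 the count was 3, 0, 3 and 2, where 10.1, 8.77, 12.7 and 9.39% of all genes did so. Krt16, a keratin of stressed epidermis, stood at 14.8, 18.6, 150.3, 345 and 82.5 CPM against 12.9 to 179.

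The radiated skin of the same mice did not enter the choice of groups. Radiated Krt71 of the 5 mice with anagen-like control skin was 30.8, 0.215, 0.597, 0.0523 and 227 CPM, and that of the 11 mice with resting control skin ran from 0 to 1437 CPM with a median of 1.57. Of these, 2 of 5 and 3 of 11 held 10 CPM or more, the 3 being in week 4. Mean log2(CPM + 1) was 2.77 and 2.56, a difference of 0.21. This difference mixes weeks, since all 4 mice of week 4 had resting control skin and their radiated mean was 5.50. An exact permutation of it within week (p = 0.986) therefore does not bear on the relation within weeks. Within weeks, the mean was 2.64 against 0.86 in week 1, 0.37 against 1.17 in week 2, and 7.83 in 1 mouse against 0.70 in week 3. Combined over these weeks, a statistic chosen after seeing the data, the difference was 2.30 (two-sided exact permutation within week, p = 0.118 over 144 arrangements, the smallest possible p being 0.00694). It was 0.49 without week 3 mouse 4 (exact permutation p = 0.889). The difference was thus positive in weeks 1 and 3 and negative in week 2, and did not pass the threshold.

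Over all genes, edgeR with week as a term called 0 of 18471 genes (0.0% in each direction) between the radiated skin of the 2 groups of mice at an adjusted p under 0.05. Without adjustment 1037 of the 18471 genes had an edgeR p under 0.05. Where no gene differs, a share of 0.05 of genes passes that threshold, so this count is not read as a difference. DESeq2 called 10 genes after adjustment. Of the 37 genes higher in anagen-like control skin, 33 were fitted in radiated skin. Their median log2 difference there was 0.94, against 0.01 over all genes, with 31 of 33 positive, 5 with an unadjusted p under 0.05 and none past the adjusted threshold. That median was 0.12, with 19 of 33 positive, without the week 3 mouse 4, and -0.89, with 3 of 33 positive, when the week term was left out, so its size depended on that mouse and its sign on the week term. In weeks 1 and 2 alone it was 0.24 (16 of 26 positive), and in weeks 3 and 4 alone, where week 3 mouse 4 is the single mouse with anagen-like control skin, 2.85 (35 of 37 positive). Krt25 had a radiated log2 difference of 4.35 ± 1.87 and Krt73 one of 4.54 ± 1.77 (edgeR adjusted p = 0.852 for both), and Tchh one of 2.07 ± 1.42. Of the lower genes, Unc13d had -0.61 ± 0.19 and 9130019O22Rik -0.72 ± 0.20 in radiated skin, with an edgeR adjusted p of 0.852 for both, and Vgll3 had -0.02 ± 0.15. In weeks 1 and 2, the mice with anagen-like control skin held 0.0523 to 30.8 CPM of Krt71 in radiated skin against 20.4 to 1514 in control skin, and in week 3 mouse 4 held 227 against 311.

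**Figure D5:**
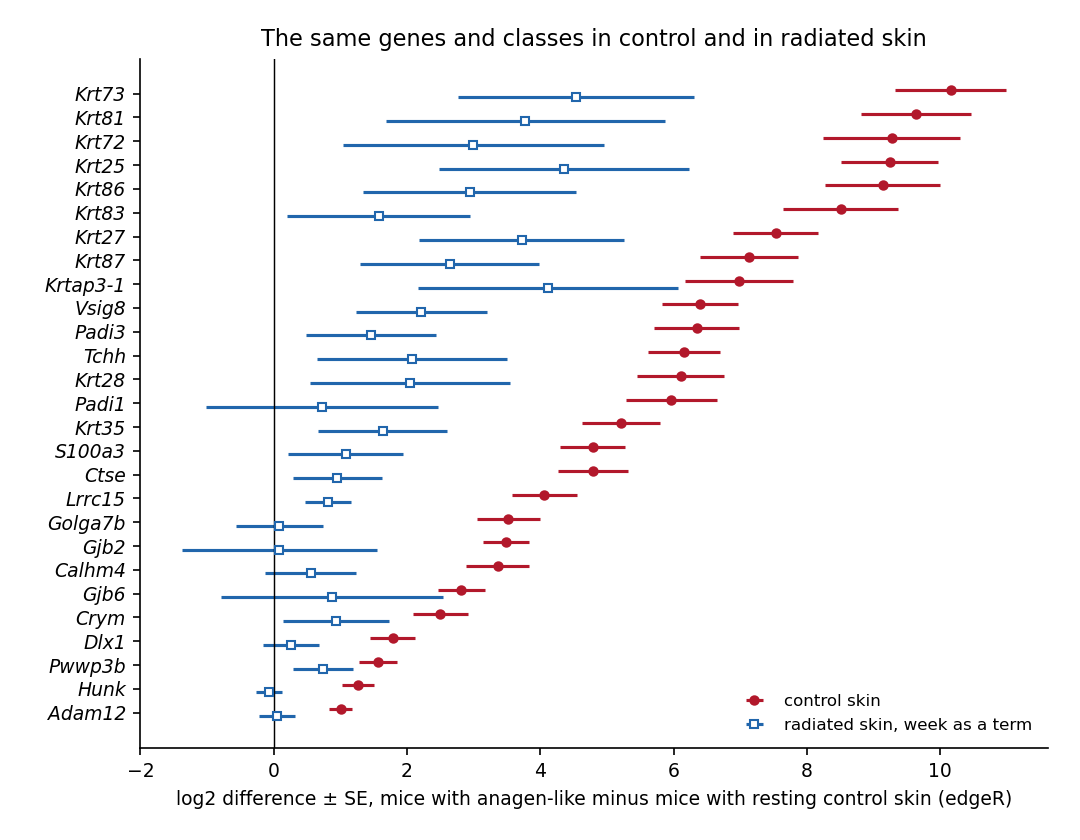
Log2 difference ± SE (edgeR) of 27 genes between mice with anagen-like and mice with resting control skin, in control skin (filled circles, the libraries used to choose the groups) and in radiated skin with week as a term (open squares). The genes are those without overlap in control skin, with a log2 difference of 1 or more and fitted in radiated skin; in radiated skin none passed the adjusted threshold and the errors are wide, as for Krt25 at 4.35 ± 1.87.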

How the data were processed

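RNA of 35 mouse skin samples was sequenced. The values the authors deposited are estimated counts per gene, made with kallisto 0.46.2 after Trim Galore 0.6.7, with mm10 as the build, per the submitters' processing notes. Kallisto and DESeq2 are named in the labels' protocols; the transcript release is not given in the sources used here. Between 29.5% and 32.5% of a library's values, zeros among them, lay further than 1e-06 from a whole number, and all were rounded. Totals ran from 17362853 to 28487885 counts, and 3 counts, taken as the floor, equal 0.105 to 0.173 CPM; intervals of this kind cover counting error only. No pair among 595 held identical values, and the lowest reduced chi-square within a group was 21.2, so each library counted as 1 replicate.

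The members and gene lists were chosen with earlier results of these data known. Krt71 CPM used the column total, and other levels are CPM on TMM-scaled libraries. Control libraries were fitted by class with edgeR 4.0.16 in R 4.3.3 (filterByExpr, TMM, quasi-likelihood), and radiated libraries by the class of the same mouse with week as a term, adjusted by Benjamini-Hochberg over all genes. SE is the log2 difference divided by the square root of F. Krt71 was left out of all counts. Genes were named where their classes did not overlap, with a mean of at least 5 CPM (the 10 largest each way, of which 5 existed for lower genes), or as members of the lists; others are marked. Alternatives were DESeq2 1.42.0, total-count scaling, no filter, other class thresholds, a week term, subsets of weeks, a replicate block and leaving out each library. The fits were also run on simulated data with known changes, whose outcome is not given here. Same week and number were taken as the same mouse because 35 samples came from 19 mice: over 16406 genes, control and radiated deviations of the same number correlated at a mean of 0.10 (range -0.11 to 0.34, over 0.1 in 7 of 16 mice), against -0.03 for other numbers; the weekly means were 0.11, 0.29, 0.02 and -0.03 in weeks 1 to 4, so the numbers of weeks 3 and 4 show little sign of pairing in the data. Positions are from GENCODE M21 (GRCm38), matched by Ensembl identifier, and promoters from RefSeq. Listed symbols without a match in the table were not analysed here.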

Additional observations from a re-analysis of the deposited data

Results flagged for a closer look

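Krt71 in sham skin, which entered no comparison between the 2 groups of control skin, was above every control library in 2 of 3 mice, at 4968 and 5742 CPM against at most 1514 in control skin. The third sham library, at 519 CPM, lay within the range of the anagen-like control libraries. Of 31 sets of 4 to 10 values checked for a library far from the others, 0 held one.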

How the results depend on the processing

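The number of genes that edgeR marked between the groups of control skin, 79, was 201 with DESeq2 (142 higher, 59 lower), 198 without a filter on low counts, 146 with a Krt71 threshold of 100 CPM, 35 with week as a term, 30 in weeks 1 to 3 only and 54 to 140 with each library left out in turn. With the replicate number as a block it was 27; the number joins different mice across weeks, all anagen-like libraries carry number 1 or 4, and so the samples share only a number. The 44 genes without overlap became 91 at 100 CPM, 94 in weeks 1 to 3, and 45 to 111 with each library left out. The count of 0 in radiated skin was 10 with DESeq2 (2 higher, 8 lower), 1 in weeks 3 and 4 only (Rrad, lower, named after its value was seen) and 0 with the replicate block and with each library left out. The difference in radiated Krt71 was -0.00398 with a pseudocount of 0.1 CPM, 1.09 at a threshold of 100 CPM, and -1.05 to 1.01 with each library left out (p from 0.583 to 1.0); this difference mixes weeks, and the cause of these changes was not tested. The difference within weeks, 2.30, was 0.49 to 3.03 with each library left out (p from 0.0694 to 0.889) and 1.48 to 2.54 (p from 0.111 to 0.229) with other pseudocounts or scaling. The statistic for week was 1.75 to 3.5 with each library left out (exact permutation p from 0.226 to 0.648) and 2.0 at 100 CPM (p = 0.859). Of 486 recalculated list medians, 483 moved by less than the spread between replicates; without week 1 library 1 the medians of sheath keratins other than Krt71, shaft keratins and keratin-associated proteins were 6.77, 4.94 and 4.51, against 8.39, 6.05 and 6.04 with all libraries. The 100 CPM threshold, the difference within weeks, weeks 1 to 3 and every alternative for genes without overlap were chosen after seeing the data. Of 58 keratin-associated proteins, 4 could be fitted; the floor of 3 counts limits what can be said of their level in resting skin.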
